A study of Mus musculus with 18 samples.

Results

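The matrix proteases and their inhibitors were taken as the protein-coding genes of the count table whose symbol starts with Mmp, Timp, Adamts or Adamtsl followed by a digit, and whose mean raw count over the 18 libraries was at least 10. This left 37 of the 55450 genes in the table: 12 matrix metalloproteinases (MMP), 4 tissue inhibitors of metalloproteinases (TIMP), 16 ADAMTS proteases and 5 ADAMTS-like (ADAMTSL) proteins. All 37 passed the filter on low counts that the tests used. The rule used symbols and the mean over all libraries, so it did not use any difference between groups. RNA of frozen left ventricle from male FVB/N mice was sequenced in 4 groups. Wild-type (WT) littermates and mice that overexpress Gαq in the heart received control chow (CD), or the same chow with the SGLT2 inhibitor ertugliflozin (ERTU) at 0.5 mg per g, for 16 weeks from 4 weeks of age. The 5 Gαq CD and 4 Gαq ERTU libraries were compared with 4 WT CD and 5 WT ERTU libraries, from separate hearts by the study's methods, to ask which of these genes differed by genotype and by diet. Each library had 15383566 to 20908363 counted read pairs. The overexpression of Gαq, encoded by Gnaq, is specific to the heart, and its promoter is not given in the sources used here.

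The MMPs are zinc-dependent enzymes that cut collagens, fibronectin and other proteins of the extracellular matrix. The secreted members act in the interstitium, and the membrane members act at the cell surface, where MMP14 also activates pro-MMP2. The 4 TIMPs bind the active site of MMPs and, to differing degrees, of ADAM and ADAMTS enzymes. The ADAMTS proteases are secreted and carry thrombospondin repeats. One group of them cuts proteoglycans such as versican and aggrecan, and ADAMTS2, ADAMTS3 and ADAMTS14 trim the N-propeptide from procollagen. ADAMTSL proteins resemble ADAMTS proteases without the catalytic domain, and several bind fibrillin microfibrils. In the heart these families are known for their part in fibrosis, dilation and the turnover of the valve and vessel matrix.

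The catalytic stretch that defines the proteases was located in the coding sequences, because it separates the enzymes from the inhibitors and from the ADAMTSL proteins. The longest complete coding sequence of each gene in GENCODE M21 was translated and searched for the zinc-binding stretch, in which 3 histidines lie at the 1st, 5th and 11th of 11 codons and glutamate at the 2nd. All 12 MMPs and all 16 ADAMTS genes held it, and none of the 4 TIMP and 5 ADAMTSL genes did. In the 12 MMPs the 33 bases lay within 1 exon, and in the 16 ADAMTS genes they were split by an intron. The codon between the 2nd and the 3rd histidine, the 8th of the stretch, coded for glycine in all 12 MMPs and in 10 ADAMTS genes, and for asparagine in 5 ADAMTS genes. The stretch is shown for 6 members that differed by genotype, 5′ to 3′ on the coding strand, with the 3 histidine codons in capitals. The positions are in build GRCm38 and, for the ADAMTS genes, include the intron.
Mmp2, chr8:92839279-92839311, plus strand: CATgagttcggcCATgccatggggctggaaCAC
Mmp14, chr14:54437627-54437659, plus strand: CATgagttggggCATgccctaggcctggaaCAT
Mmp23, chr4:155651528-155651560, minus strand: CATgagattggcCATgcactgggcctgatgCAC
Adamts20, chr15:94353678-94355296, minus strand: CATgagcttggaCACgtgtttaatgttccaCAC
Adamts8, chr9:30952721-30953378, plus strand: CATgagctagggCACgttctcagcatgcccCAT
Adamts2, chr11:50775403-50776134, plus strand: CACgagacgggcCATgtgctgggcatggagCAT

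Promoters were available from RefSeq (build GRCm38.p6) for 23 of the 37 genes, with 24 start sites in all. The 250 bases before each start were searched on both strands for GGGCGG, the GC box, for TATAAA, and for TGANTCA, the AP-1 motif. The GC box was in 17 of the 24 promoters (70.8%) and in 32.7% of all 32851 promoters of the same length. That background was not limited to protein-coding genes or by counts, as the 37 genes were, and the part of this in the difference was not tested. TATAAA was in 4 (16.7%, all promoters 12.4%) and the AP-1 motif in 2 (8.33%, all promoters 6.75%), those of Mmp3 and Mmp13. The promoters of Adamts20 and Timp1 are shown because these genes had large differences between genotypes. They are written 5′ to 3′ on the strand of the gene, with GC boxes in capitals.
Adamts20, chr15:94404351-94404600, minus strand: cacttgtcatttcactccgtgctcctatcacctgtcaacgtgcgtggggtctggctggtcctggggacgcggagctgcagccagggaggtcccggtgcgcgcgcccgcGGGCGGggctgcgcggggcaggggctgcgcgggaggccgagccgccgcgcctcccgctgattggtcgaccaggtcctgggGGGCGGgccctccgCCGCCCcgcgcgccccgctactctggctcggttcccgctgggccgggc
Timp1, chrX:20869916-20870165, plus strand: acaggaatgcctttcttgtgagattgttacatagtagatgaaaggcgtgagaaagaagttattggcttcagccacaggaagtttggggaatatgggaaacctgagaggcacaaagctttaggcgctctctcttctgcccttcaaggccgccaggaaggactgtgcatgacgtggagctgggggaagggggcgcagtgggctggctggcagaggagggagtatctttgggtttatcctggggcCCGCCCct
The Adamts20 window held 3 GC boxes and the Timp1 window 1, and neither held TATAAA or the AP-1 motif. The Adamts20 start used here lies inside the GENCODE M21 gene model, which begins further upstream.

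The inhibitors Timp2 and Timp3 and the gelatinase Mmp2 were the most abundant transcripts of these families in left ventricle. Levels between genes were compared as counts per 1000000 counted read pairs (CPM) per kb of merged exons. On this scale the mean over the 18 libraries was 55.9 for Timp2, 51.6 for Timp3 and 45.4 for Mmp2. Adamtsl5 (22.4), the membrane protease Mmp15 (17.3) and Adamtsl4 (16.8), a fibrillin-binding protein, followed. The highest ADAMTS gene was Adamts1, a versican-cleaving protease, at 9.59, ahead of Adamts10 (5.18) and Adamts2 (5.16). Timp4, the TIMP best known from the heart, stood at 8.18 and Timp1 at 2.19. The lowest members were Mmp16 at 0.157, Adamts4 at 0.223 and Adamts19 at 0.231.

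**Figure D1:**
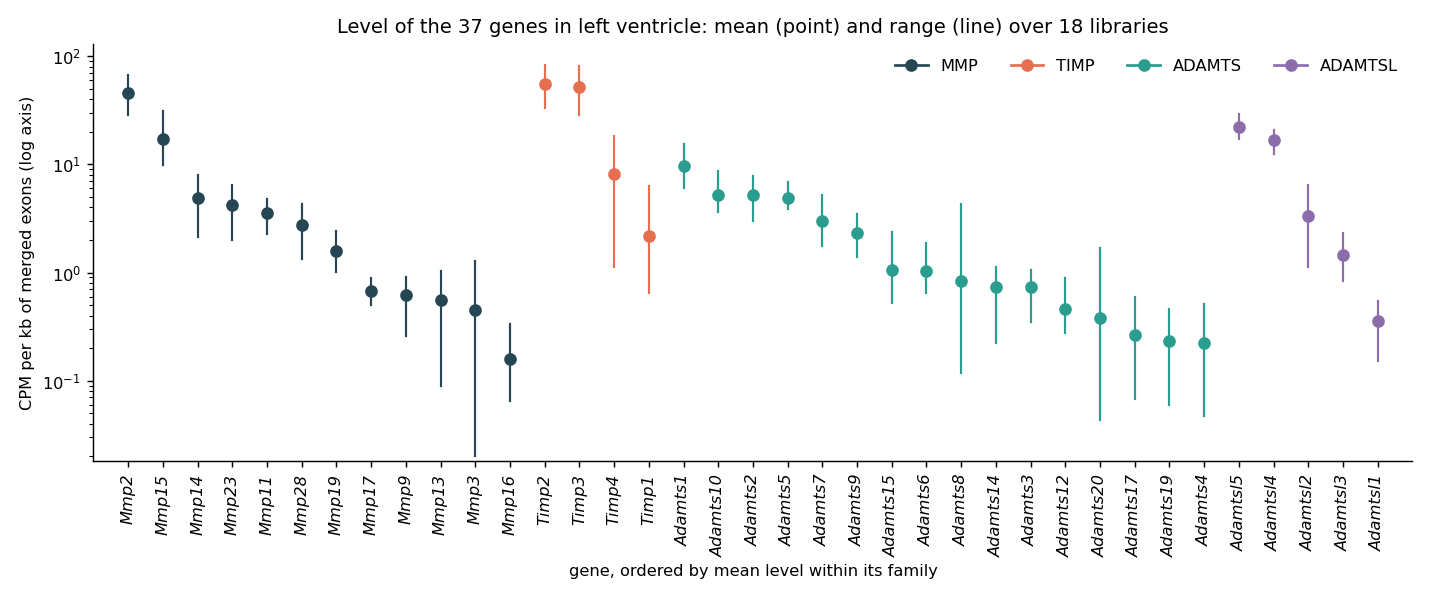
Level of the 37 genes in CPM per kb of merged exons on a log axis, as the mean (point) and the range (line) over 18 libraries, coloured by family. Timp2, Timp3 and Mmp2 have means between 45.4 and 55.9, and Timp4 and Adamts8 have wide ranges. The line of Mmp3 runs to the lower edge of the axis because 1 library is at 0.

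Summed per kb over its 12 members, the MMP family was 75.2 ± 12.2 CPM per kb in WT CD (SD, n = 4), 69.5 ± 5.04 in WT ERTU (n = 5), 92.7 ± 7.28 in Gαq CD (n = 5) and 91.8 ± 10.1 in Gαq ERTU (n = 4). The TIMP sum was 112 ± 44.9, 112 ± 33.9, 110 ± 31.3 and 141 ± 26.7 in the same order, so its groups overlapped widely. The ADAMTS sums lay between 33.9 and 37.6 and the ADAMTSL sums between 42.6 and 46.8 as group means. Mmp2 made up 54.6% of the MMP sum on average and Mmp15 21.7%. Timp2 and Timp3 made up 48.4% and 43.0% of the TIMP sum. Adamtsl5 and Adamtsl4 made up 50.4% and 38.0% of the ADAMTSL sum. The ADAMTS sum was spread over more genes, led by Adamts1 with 26.5%.

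The limit of 10 mean counts fell among MMPs and an aggrecanase. Just inside were Mmp3 (mean raw count 15.2), Adamts4 (19.7) and Mmp16 (24.8). Just outside were Mmp27 (9.83), the macrophage elastase Mmp12 (5.50) and Mmp25 (2.22). In all 14 genes with a matching symbol were not members: Mmp1b, Mmp7 and Mmp20 had no count in any library, and Mmp1a, which is annotated as a polymorphic pseudogene, had none either. The neutrophil collagenase Mmp8 had a mean raw count of 0.722 and Adamts13, which cuts von Willebrand factor, one of 0.222.

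Gnaq, the overexpressed gene, separated the genotypes in every library: it lay between 45.5 and 230 CPM in the 9 WT and between 1640 and 11660 CPM in the 9 Gαq libraries. Over both diets 11 of the 37 genes differed between Gαq and WT at an adjusted p under 0.05 by edgeR's quasi-likelihood test with Benjamini-Hochberg adjustment over all 16270 genes tested. That is 29.7%, against 19.5% of all genes. Of these, 9 rose in Gαq (24.3%, all genes 9.67%) and 2 fell (5.41%, all genes 9.83%). The median log2 change of the 37 was −0.03, and that of all genes tested 0.0038. By family, 3 of 12 MMPs rose, 1 of 4 TIMPs rose, 4 of 16 ADAMTS genes rose and 2 fell, and 1 of 5 ADAMTSL genes rose. The secreted MMPs had 1 of 7 members past the threshold and the membrane MMPs 2 of 5. Among the ADAMTS genes, 2 of 7 proteoglycanases, 2 of 3 procollagen N-propeptidases and 2 of the other 6 passed.

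**Figure D2:**
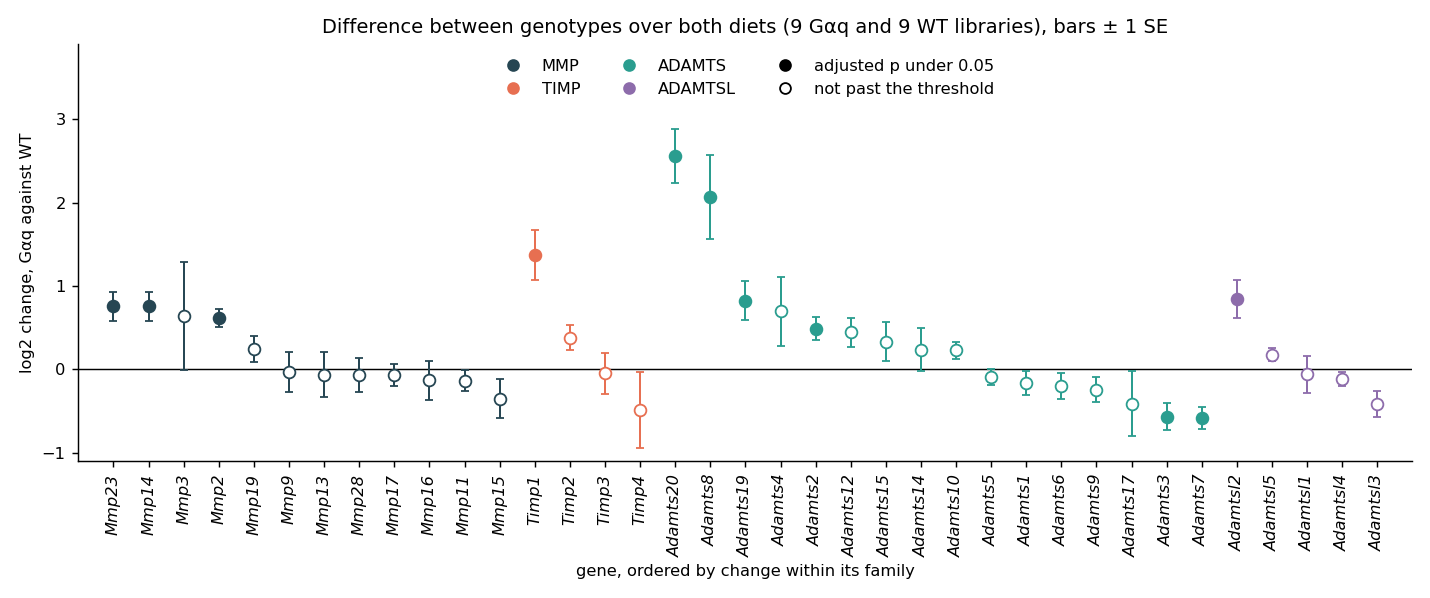
Log2 change in Gαq against WT over both diets for the 37 genes, with bars of ± 1 SE, ordered by change within each family. The 11 filled points passed an adjusted p of 0.05, from Adamts20 at 2.55 to Adamts7 at −0.58, and open points did not.

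Mmp2, the gelatinase that cuts denatured and basement-membrane collagen, rose in Gαq left ventricle. Its CPM was 142, 104, 100 and 177 in WT CD libraries 1, 2, 4 and 5. It was 113, 108, 108, 139 and 97.1 in WT ERTU libraries 11 to 15. The Gαq values were higher, and 8 of the 9 WT libraries lay below the lowest Gαq library. Gαq CD libraries 6 to 10 had 172, 165, 218, 182 and 163 CPM. Gαq ERTU libraries 16, 17, 18 and 20 had 190, 174, 176 and 228 CPM. The library WT CD 5 was the only WT library inside the Gαq range. The log2 change was 0.61 ± 0.11 (SE, 1.53-fold), with an adjusted p of 0.000284 by edgeR.

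Mmp14, the membrane protease that activates pro-MMP2, and Mmp23, a membrane protease without a hemopexin domain, also rose. Mmp14 was at 17.5, 16.9, 15.04 and 32.5 CPM in WT CD libraries 1, 2, 4 and 5, and at 24.3, 22.3, 25.4, 28.8 and 12.6 in WT ERTU 11 to 15. In Gαq CD 6 to 10 it was at 40.4, 37.1, 23.3, 42.4 and 39.4 CPM, and in Gαq ERTU 16, 17, 18 and 20 at 27.6, 40.3, 29.9 and 47.3. WT CD 5 was high and Gαq CD 8 low for their groups, and 6 of the 9 Gαq libraries lay above every WT library. The log2 change was 0.76 ± 0.18 (1.69-fold, adjusted p = 0.00473). Mmp23 was at 6.80, 5.58, 4.74 and 12.9 CPM in WT CD and 5.27, 6.41, 9.64, 10.3 and 4.64 in WT ERTU. It was at 10.6, 10.6, 14.3, 10.96 and 12.9 CPM in Gαq CD and 13.8, 11.4, 12.1 and 14.97 in Gαq ERTU. Here too WT CD 5 was the only WT library inside the Gαq range. The log2 change was 0.76 ± 0.18 (1.69-fold, adjusted p = 0.00413).

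The other 9 MMPs did not pass the test. Mmp15, the second most abundant, varied from 53.3 to 168 CPM over the 18 libraries, with a log2 change of −0.35 ± 0.24 (adjusted p = 0.340). The stromelysin Mmp3 had a log2 change of 0.64 ± 0.65 (adjusted p = 0.542) and was high in single libraries: 1.69 CPM in WT CD 5, 2.30 in WT ERTU 14 and 2.01 in Gαq CD 8, where the other libraries of these groups reached at most 0.398. In the 4 Gαq ERTU libraries it ranged from 0.942 to 2.03. The collagenase Mmp13 (−0.06), the gelatinase Mmp9 (−0.03), Mmp11 (−0.14), Mmp16 (−0.13), Mmp17 (−0.07) and Mmp28 (−0.07) had log2 changes near 0, with standard errors of 0.12 to 0.27. Mmp19 had a log2 change of 0.25 ± 0.16.

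Of the inhibitors, Timp1, the TIMP that is induced in fibrosis, rose from a low level. Its CPM was 1.32, 0.683, 0.636 and 2.07 in WT CD libraries 1, 2, 4 and 5. In WT ERTU 11 to 15 it was 0.599, 0.613, 0.877, 2.25 and 0.579. The libraries WT CD 5 and WT ERTU 14 were the 2 WT libraries that reached the Gαq range. Gαq CD 6 to 10 had 2.46, 2.42, 5.58, 2.68 and 1.83 CPM, and Gαq ERTU 16, 17, 18 and 20 had 2.50, 1.83, 2.26 and 3.81. The log2 change was 1.37 ± 0.30 (2.58-fold, adjusted p = 0.00228). On the scale per kb Timp1 was still far below Timp2 and Timp3.

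The other 3 TIMPs did not pass the threshold. Timp2, which both inhibits MMPs and helps MMP14 to activate pro-MMP2, was at 189 ± 56.4 CPM in WT and 246 ± 47.0 in Gαq (SD, n = 9 each), a log2 change of 0.38 ± 0.15 with an unadjusted p of 0.0221 and an adjusted p of 0.0897 by edgeR. Timp3, which is bound to the matrix, was at 427 ± 164 in WT and 413 ± 161 in Gαq, a log2 change of −0.05 ± 0.25. Timp4 was at 56.9 ± 32.4 in WT and 39.6 ± 23.6 in Gαq, a log2 change of −0.49 ± 0.46. Timp4 was the TIMP with the widest spread. In WT CD 1, 2, 4 and 5 it was at 74.6, 31.4, 10.7 and 65.4 CPM, and in WT ERTU 11 to 15 at 108, 52.0, 55.0, 92.9 and 21.5. In Gαq CD 6 to 10 it was at 53.5, 6.67, 14.4, 10.4 and 56.3, and in Gαq ERTU 16, 17, 18 and 20 at 53.9, 33.5, 63.9 and 63.8. The Gαq CD libraries thus fell into 3 low and 2 high values, and the groups overlapped.

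**Figure D3:**
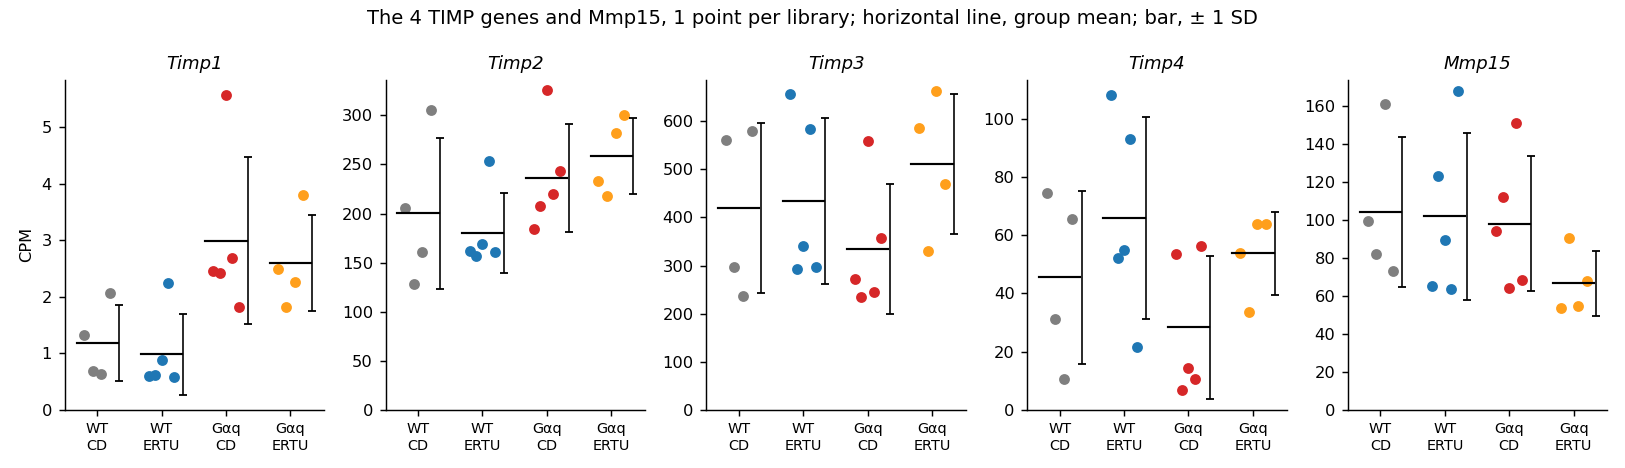
CPM of the 4 TIMP genes and Mmp15 in each of the 18 libraries (points), with the group mean (horizontal line) and ± 1 SD (bar), on linear axes from 0. Timp1 lies at 1.83 CPM or more in the 9 Gαq libraries, and Timp3, Timp4 and Mmp15 overlap between all groups.

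Adamts20, a versican-cleaving protease, had the largest difference and was the only one of the 37 genes whose 9 Gαq libraries all lay above all 9 WT libraries. Such a separation was seen for 1.73% of all genes tested. In WT CD libraries 1, 2, 4 and 5 its CPM was 0.922, 0.967, 1.16 and 1.69, and in WT ERTU 11 to 15 it was 0.419, 0.390, 0.438, 0.943 and 1.22. In Gαq CD 6 to 10 it was 4.48, 15.2, 7.77, 7.80 and 4.03, and in Gαq ERTU 16, 17, 18 and 20 it was 2.37, 6.81, 2.14 and 2.53. The log2 change over both diets was 2.55 ± 0.33 (5.88-fold, adjusted p = 1.13e-05). The gene had a mean raw count of 64.9, so each library rested on few reads.

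Adamts8, another proteoglycanase, rose unevenly. It was at 2.13, 1.14, 0.694 and 2.63 CPM in WT CD 1, 2, 4 and 5, and at 0.539, 1.45, 0.877, 2.20 and 1.03 in WT ERTU 11 to 15. In Gαq CD 6 to 10 it was at 2.15, 9.09, 19.9, 6.55 and 1.12, and in Gαq ERTU 16, 17, 18 and 20 at 2.44, 7.64, 1.86 and 6.20. Thus 5 of the 9 Gαq libraries lay above all WT libraries and the other 4 lay among them. The log2 change was 2.07 ± 0.50 (4.20-fold, adjusted p = 0.00726), and the call was lost with limma voom and sample quality weights (log2 change 1.64, adjusted p = 0.0573). Its neighbour on chromosome 9, Adamts15, starts 20109 bp away on the other strand and had a log2 change of 0.33 ± 0.23 that did not pass the test (adjusted p = 0.359). The other proteoglycanases also missed the threshold. Adamts1 and Adamts5, which lie 53059 bp apart on chromosome 16, had log2 changes of −0.16 ± 0.14 and −0.09 ± 0.10. The aggrecanase Adamts4 had 0.69 ± 0.41 and Adamts9 −0.24 ± 0.15.

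The 3 procollagen N-propeptidases did not move together. Adamts2, the main enzyme for fibrillar procollagens, rose from 39.8 ± 10.4 CPM in WT to 56.5 ± 10.3 in Gαq (SD, n = 9 each), a log2 change of 0.49 ± 0.13 (1.40-fold, adjusted p = 0.0133). It lay between 27.9 and 62.6 CPM in WT, where WT CD 5 was the highest, and between 45.8 and 72.7 in Gαq. Adamts3, which also activates the lymphatic growth factor VEGF-C, fell from 4.73 ± 0.740 to 3.22 ± 0.929 CPM, a log2 change of −0.57 ± 0.16 (1.48-fold lower, adjusted p = 0.0147). Of its 9 Gαq libraries 4 lay below all WT libraries. Adamts14 had a log2 change of 0.24 ± 0.26 and did not pass.

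Among the other ADAMTS genes Adamts19 rose and Adamts7 fell. Adamts19, a gene tied to heart valve disease, went from 2.33 ± 0.772 to 4.15 ± 1.501 CPM, a log2 change of 0.82 ± 0.23 (1.77-fold, adjusted p = 0.0147). Its WT values ran from 0.839 to 3.34 and its Gαq values from 2.56 to 6.40, so the genotypes overlapped. Adamts7, a protease of vascular smooth muscle that cuts COMP, fell from 22.4 ± 5.16 to 15.3 ± 3.54 CPM, a log2 change of −0.58 ± 0.13 (1.49-fold lower, adjusted p = 0.00306). Its highest value was 32.7 in WT CD 4 and its lowest 11.2 in Gαq CD 8, and 5 Gαq libraries lay below all WT libraries. Adamts10, the fibrillin-binding member, had a log2 change of 0.23 ± 0.11 with an unadjusted p of 0.0450 and an adjusted p of 0.147 by edgeR. Adamts12 had 0.44 ± 0.18 (adjusted p = 0.0834).

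Of the ADAMTSL genes Adamtsl2, which binds fibrillin and the latent TGF-β binding protein, rose. It was at 24.8, 9.39, 8.96 and 30.6 CPM in WT CD 1, 2, 4 and 5 and at 25.5, 21.2, 13.1, 22.4 and 14.2 in WT ERTU 11 to 15. It was at 29.2, 22.3, 51.5, 36.0 and 35.8 in Gαq CD 6 to 10 and at 29.0, 35.2, 30.1 and 36.7 in Gαq ERTU 16, 17, 18 and 20. The log2 change was 0.84 ± 0.23 (1.79-fold, adjusted p = 0.0148), and 5 Gαq libraries lay above all WT libraries. The abundant Adamtsl5 (0.18 ± 0.08, adjusted p = 0.144) and Adamtsl4 (−0.12 ± 0.09, adjusted p = 0.386) did not pass.

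**Figure D4:**
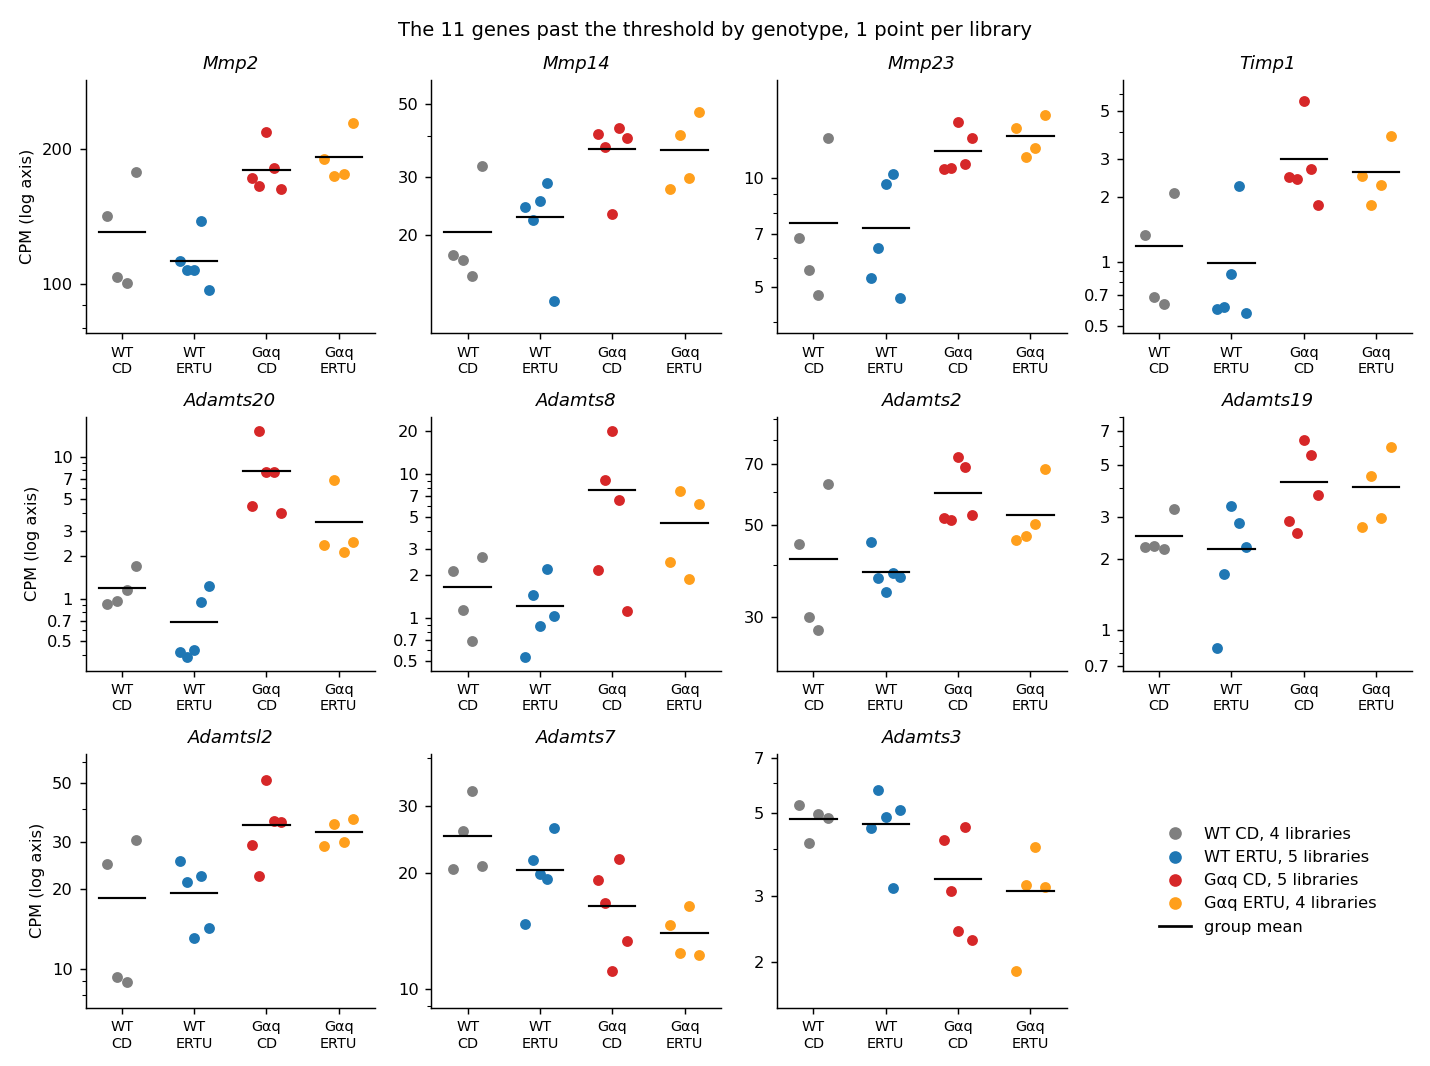
CPM on log axes for the 11 genes past the threshold by genotype, 1 point per library and a line at the group mean, for the 4 groups of genotype and diet. Adamts20 alone has no overlap between WT (up to 1.69 CPM) and Gαq (from 2.14 CPM), and the highest WT point of Mmp2, Mmp14, Mmp23 and Adamts2 is a WT CD library.

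Within a single diet fewer genes passed, with 9 libraries per comparison. On CD only Adamts20 differed between Gαq and WT, that is 2.70% of the 37 genes against 7.92% of all genes (log2 change 2.73 ± 0.46, adjusted p = 0.000821 by edgeR). On ERTU 3 genes differed, 8.11% against 7.98% of all genes: Adamts20 (2.34 ± 0.48, adjusted p = 0.00395), Mmp2 (0.77 ± 0.15, adjusted p = 0.00226) and Mmp23 (0.85 ± 0.25, adjusted p = 0.0456). Mmp2 on CD had a log2 change of 0.46 ± 0.15 (adjusted p = 0.0680), and Timp1 had 1.35 ± 0.44 on CD (adjusted p = 0.0647) and 1.38 ± 0.43 on ERTU (adjusted p = 0.0548). The count on CD also depended on the test. DESeq2 and limma voom each called 6 of the 37 genes (16.2%). Of all genes limma voom called 10.5%, and DESeq2 called 1685 against 1288 by edgeR. It depended on 1 library too: without WT CD 5 it was 8 of 37 (21.6%, all genes 8.30%), with Mmp2, Mmp14, Mmp23, Timp1, Adamts2, Adamts7 and Adamtsl2 added. Leaving out Gαq CD 6 gave 4 (10.8%, all genes 8.67%). Leaving out Gαq CD 10 or WT ERTU 15 gave 3 (8.11%, all genes 7.94% and 7.95%). Leaving out Gαq CD 8, Gαq CD 9, WT ERTU 11 or WT ERTU 14 gave 2 (5.41%). In that order the shares of all genes were 5.92%, 6.45%, 8.34% and 8.46%. The call of Mmp23 on ERTU was lost when any of 12 single libraries was left out, with adjusted p-values from 0.0526 to 0.125. The groups compared on CD and on ERTU share no library. Both tests came from 1 model of all 18 libraries with a shared estimate of the spread, so their results are not independent.

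No gene of the 37 passed by diet. ERTU against CD gave 0 calls among the 37 genes over both genotypes, in WT and in Gαq, and 0 for the interaction of genotype and diet, by edgeR's quasi-likelihood test, by DESeq2 and by limma voom. The background was 0% of the 16270 genes in each of these edgeR comparisons. At an unadjusted p under 0.05 there were 4, 1, 5 and 0 of the 37 genes, against 7.34%, 2.15%, 7.34% and 1.89% of all genes. Adamts20 had the smallest p: ERTU against CD gave a log2 change of −1.04 ± 0.32 over both genotypes (unadjusted p = 0.00376, adjusted p = 0.668) and −1.18 ± 0.41 in Gαq (unadjusted p = 0.00917, adjusted p = 0.673). The mean of Adamts20 was 7.86 ± 4.48 CPM in Gαq CD (n = 5) and 3.46 ± 2.24 in Gαq ERTU (n = 4), and only Gαq ERTU 17 lay among the Gαq CD values. Gnaq itself was at 7466 ± 3814 CPM in Gαq CD and 3214 ± 1370 in Gαq ERTU, and its part in the Adamts20 difference was not tested. The other genes with an unadjusted p under 0.05 over both genotypes were Adamts17 (−0.84), Mmp13 (−0.60) and Mmp16 (−0.60). In Gαq they were Adamts1 (0.41), Adamts10 (−0.32), Adamts17 (−1.34) and Mmp13 (−0.96), and in WT Mmp16 (−0.71).

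The interaction asked whether ERTU acted differently in the 2 genotypes. Its log2 values were −0.39 ± 0.68 for Adamts20, 0.31 ± 0.21 for Mmp2, 0.03 ± 0.60 for Timp1, 0.57 ± 0.49 for Timp3 and 0.39 ± 0.95 for Timp4. None of the 37 passed the test, with an adjusted p of 0.9997 for each by edgeR. A missed threshold here does not show that ERTU had no effect on these genes.

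Genes that act with these families were read from lists by function. Over both diets 26 of 69 tested genes in 6 lists (37.7%, all genes 19.5%) differed between Gαq and WT by edgeR's test. Of these, 19 were higher (27.5%, all genes 9.67%) and 7 lower (10.1%, all genes 9.83%). The share lower was thus near that of all genes. The median log2 change was 0.25. Among substrates and matrix genes 7 of 17 rose (41.2%) and none fell. These 7 were led by the fibrillin Fbn2 (log2 change 1.98, adjusted p = 6.95e-06 by edgeR) and the collagen I chain Col1a1 (0.87, adjusted p = 0.00473). Of cathepsins and cystatins 5 of 14 rose (35.7%) and 1 fell (7.14%). The collagenolytic cathepsin Ctsk went from 11.7 ± 2.01 to 23.1 ± 2.02 CPM (log2 change 0.98, adjusted p = 1.31e-07), the inhibitor Cst6 rose by 0.73 and Ctsf fell by 0.25. In the plasminogen system 2 of 6 tested genes rose (33.3%): the urokinase gene Plau (0.75) and the protease inhibitor Serpine2 (0.29).

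The procollagen C-proteinase list had 1 of 5 higher and 1 lower (20% each, all genes 9.67% and 9.83%). The enhancer Pcolce rose by 0.74 (adjusted p = 1.28e-05) and the tolloid-like protease Tll2 fell by 0.88. Of the other regulators 3 of 17 rose and 3 fell (17.6% each). The broad protease inhibitor A2m rose by 1.96 from a low level, and the membrane protease Fap rose by 0.40. The proprotein convertases Furin (−0.44) and Pcsk6 (−0.45), which cut propeptides, fell. Of the ADAM genes 1 of 10 rose (10%, near the share of all genes), Adam33 (0.77). A further 2 fell (20%), Adam22 (−0.48) and Adam23 (−0.44), both of which lack protease activity. None of the 69 genes passed by diet in edgeR, and 11 had an unadjusted p under 0.05 over both genotypes, against 7.34% of all genes. By genotype DESeq2 called 29 and limma voom 35 of these genes. Of all genes DESeq2 called 3553 and limma voom 3881 (23.9%), against 3174 by edgeR.

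Several lists of cell-type markers differed by genotype in the same samples. For the counts below, 9.67% of all genes tested were higher in Gαq and 9.83% lower. The summed CPM of 10 fibroblast markers ran from 3535 to 6879 (median 3991) in WT and from 5400 to 8498 (median 6337) in Gαq, and 6 of the 10 were higher by edgeR. Col1a1, Col1a2, Col3a1 and Dcn are in this list and among the substrates. The 10 cardiomyocyte markers summed to 84163 to 116015 (median 106629) in WT and 79176 to 102259 (median 87562) in Gαq, and 5 of 10 were lower. Macrophage markers summed to 325 to 526 in WT and 354 to 671 in Gαq, and 1 of 8 was higher, near the share of all genes. Of 8 activated fibroblast markers 3 were higher, and their sum had a median of 289 CPM in WT and 369 in Gαq. The atrial sum had a median of 21.8 CPM in WT and 193 in Gαq, and none of its 5 tested genes passed. Skeletal muscle markers, a list that includes the actin gene Acta1, had a median sum of 595 CPM in WT and 1479 in Gαq, and 2 of 4 tested were higher. Of 8 endothelial markers 2 were lower, with medians of 1595 and 1532 CPM. Neutrophil markers were near 0, at most 6.51 CPM in sum, and no list had a marker at 0 in every library. In bulk tissue more cells of a type and more RNA per cell cannot be told apart, and the part of these cell types in the results above was not tested.

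Single libraries stood apart for these genes. WT CD 5 had the highest WT value for 16 of the 37 genes, and Gαq CD 8 the highest Gαq value for 11. Gαq CD 9 was highest for 9 and WT ERTU 14 for 3, and WT ERTU 15 had the lowest WT value for 10. The same count over all genes was not made, so these counts may not be particular to the 37 genes. WT CD 5, WT ERTU 14 and Gαq CD 8 also had the highest fibroblast marker sums of their groups, 6879, 6443 and 8498 CPM. The sum of 6 atrial markers stood apart further in the same libraries. It was 322 CPM in WT CD 5 against 5.67 to 90.8 in the other WT CD libraries, and 336 in WT ERTU 14 against 11.4 to 95.9. In Gαq CD 8 it was 909 against 14.6 to 193, and 5 mesothelial markers summed to 44.8 there against at most 8.99 in the others. In the Gαq ERTU libraries the atrial sum ran from 80.3 to 576. The 576 CPM was in Gαq ERTU 20, above the sums of WT CD 5 and WT ERTU 14. The part of atrial or mesothelial tissue in the values of these libraries was not tested. Leaving out WT CD 5, WT ERTU 14 and Gαq CD 8, with Gαq ERTU 20 kept, gave 15 of the 37 genes by genotype over both diets. These were all 11 of the main comparison plus Timp2, Mmp3, Adamts12 and Adamtsl3. That is 40.5% of the 37 genes against 20.8% of all genes in the same fit. The 3 libraries left out were picked after seeing the data, and Mmp3 was high in each of them. Such a choice can itself add calls, so the gain does not show a larger difference between genotypes. Without any 1 of the 18 libraries the count was 11 to 13, and the 11 genes were kept each time. In this set Timp2 passed without WT CD 5 (log2 change 0.52, adjusted p = 0.00643) and without WT ERTU 14 (0.44, adjusted p = 0.0425).

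**Figure D5:**
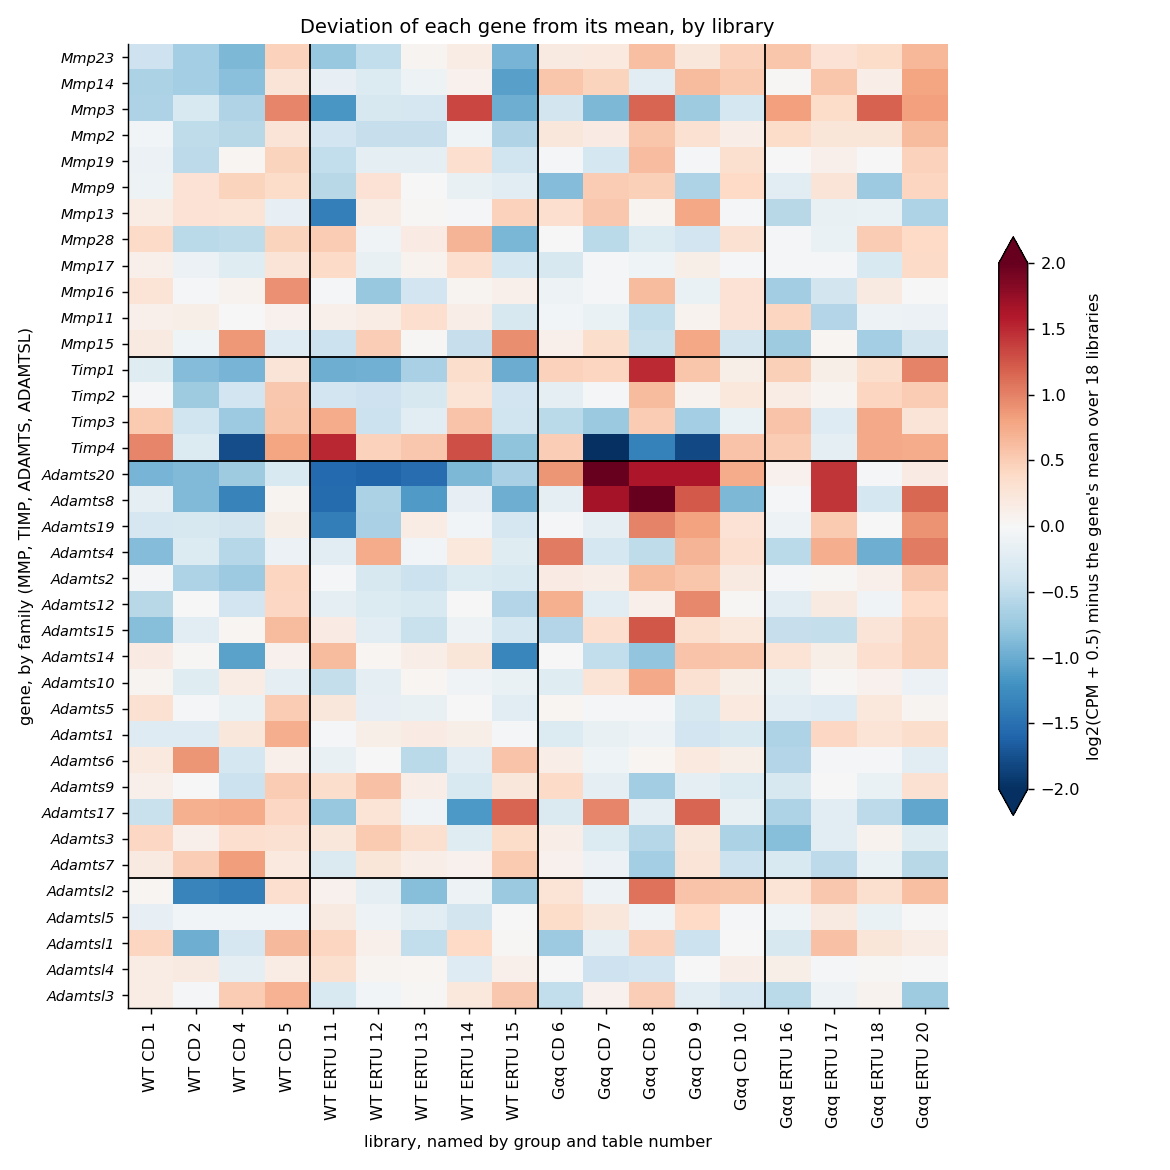
Deviation of each gene from its own mean over 18 libraries, as log2(CPM + 0.5), with genes by family in rows and libraries by group in columns. Blue is below the mean and red above it. Adamts20 is red in the Gαq CD libraries and blue in WT ERTU, and Timp4 is dark blue in Gαq CD 7, 8 and 9 and in WT CD 4.

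Some members share exon bases with another gene on the opposite strand. The study states that pairs on the same strand were counted, and whether the library kit keeps strand was not settled here. Mmp11 shares 155 bp with Chchd10 (8668), Adamts7 shares 122 bp with Tbc1d2b (742), and Timp4 shares 90 bp with Syn2 (128). Values of Mmp11 are therefore uncertain. Adamts8 shares 489 bp with Gm29724, which had a mean raw count of 1.39. The other 9 of the 11 genes that passed by genotype share no exon base with another annotated gene.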

How the data were processed

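Poly(A)-selected RNA of left ventricle was sequenced as 100-bp read pairs by the authors. They aligned the reads to mm10 with STAR 2.6.0c and deposited raw counts per Ensembl gene from featureCounts (Subread 1.6.2), for uniquely aligned proper pairs over nuclear-encoded genes. A second deposited table, of transformed values, was not used here. Mice were grouped by genotype and diet as the column names give them. The column numbers run through the whole table and were used only to name libraries. Pairs of libraries within a group had Pearson correlations of 0.980 to 0.993 across genes.

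Of the gene IDs 99.5% matched GENCODE M21 (GRCm38), which gave symbols, positions and exon lengths. Counts were tested in R 4.3.3 with edgeR 4.0.16: TMM scaling, filterByExpr on the 4 groups (16270 genes), quasi-likelihood F tests with robust estimation, and Benjamini-Hochberg adjustment over the whole table (threshold 0.05). A model of genotype and diet gave the main effects, and a model with 1 mean per group gave the single-diet, single-genotype and interaction comparisons. Levels are CPM with TMM factors, and SDs are over libraries. An exon overlap of 1 member is not reported here. The edgeR p-values set a difference between groups against a spread estimated from the mice sequenced.

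The 37 genes and the lists were chosen with earlier results of these data known. Named genes are all TIMPs, all genes past the threshold in any of 7 comparisons, the 3 highest per kb in each other family, those with an unadjusted p under 0.01 by diet or interaction, and the 3 on each side of the limit. In each list beyond the 37 genes, up to 2 with the largest rise and 2 with the largest fall among those past the threshold are named. Other members were named after their values were seen. On simulated counts with 100 genes changed by a log2 value of 0.5 and 100 by 1, the test of both diets found 64 and 88 of them with 4 false calls, and the test on CD found 24 and 77 with 8. The simulation tested 16076 genes, so a far smaller share was changed than the 19.5% called over both diets in the data. The shares found need not carry over. Alternatives were median-of-ratios scaling, other filters, DESeq2 1.42.0, voom from limma 3.58.1 with weights per library, fits of the compared groups only, and leaving out each library. An edgeR fit without robust estimation and a fit without 3 libraries were added after seeing the data.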

Additional observations from a re-analysis of the deposited data

Results flagged for a closer look

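In each of the 4 groups the 22 named genes were checked for a library far from the others, by the gap to the nearest library as a share of the group's range (Dixon's test at 95%). Of 88 groups of values 12 were marked, where chance gives about 1 in 20, or 4.4. That rate assumes independent and normally distributed values, which was not checked, so 4.4 is only a rough guide. Several marks fell on the same libraries. In WT CD 5, Adamts19 was high (gap share 0.926, 3.26 CPM against 2.20 to 2.28), as were Mmp14 (0.861, 32.5 CPM against 15.04 to 17.5) and Mmp3 (0.885, 1.69 CPM against 0.230 to 0.398). In WT ERTU 14, Mmp3 (0.831, 2.30 CPM against 0 to 0.390), Timp1 (0.822, 2.25 CPM against 0.579 to 0.877) and Timp2 (0.881, 253 CPM against 157 to 169) were high. In Gαq CD 8, Mmp3 (0.855, 2.01 CPM against 0.0967 to 0.375) and Timp1 (0.773, 5.58 CPM against 1.83 to 2.68) were high and Mmp14 was low (0.722, 23.3 CPM against 37.1 to 42.4).

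The other marks fell on other libraries. Adamts20 was high in Gαq ERTU 17 (0.918, 6.81 CPM against 2.14 to 2.53). Adamtsl4 was low in WT CD 4 (0.922, 61.8 CPM against 77.6 to 78.9) and Adamtsl5 was low in WT CD 1 (0.91, 93.6 CPM, with the 3 other libraries at about 101). WT CD 5, WT ERTU 14 and Gαq CD 8 had the highest fibroblast marker sums of their groups (6879, 6443 and 8498 CPM) and the highest atrial marker sums (322, 336 and 909 CPM, against at most 90.8, 95.9 and 193 in the other libraries). In Gαq CD 8 mesothelial markers summed to 44.8 CPM against at most 8.99. The part of these markers in the values above was not tested.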

How the results depend on the processing

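By genotype over both diets the count of 11 genes was 11 to 13 under the other settings with all libraries and 11 to 13 with 1 library left out, and 15 without WT CD 5, WT ERTU 14 and Gαq CD 8 (40.5%, all genes 20.8%). These 3 libraries were picked after seeing the data, so the rise to 15 does not show a larger difference. On CD the count of 1 gene became 6 with DESeq2, 6 with limma voom, 3 without robust estimation and 6 without those 3 libraries, where all genes called were 1685, 1711, 1318 and 1213 against 1288, and ran from 1 to 8 with 1 library left out. The lowest count of all genes on CD was 770, without WT CD 1. On ERTU the count of 3 became 9 with limma voom, 6 with only the groups compared and 8 without those 3 libraries, where all genes called were 2719, 1239 and 2011 against 1298, and ran from 2 to 4 with 1 library left out. The cause was not tested. By diet and for the interaction the count of the 37 genes was 0 in every setting run. Of the results of the 22 named genes none reversed. Among the other settings 1164 results kept their side of the threshold, 35 passed it and 2 lost it. The 2 were Adamts8 over both diets with limma voom and Mmp23 on ERTU with no filter (adjusted p = 0.0999 by edgeR). These settings used all libraries, only the groups compared, or all but those 3 libraries. Over all 37 genes these settings added 40 calls and lost 2. On CD the list genes past the threshold went from 9 to 15 with DESeq2 or limma voom, 16 without those 3 libraries and 18 without WT CD 5, and on ERTU from 11 to 25 with limma voom and 26 without those 3 libraries. No paired analysis was possible because the numbers of the columns run across the whole table and are not the within-group numbers of the labels. With 15383566 to 20908363 read pairs per library, Mmp3 (mean raw count 15.2) had the widest standard error by genotype, 0.65 on the log2 scale, and Adamts8 (75.5) and Timp4 (869) followed with 0.50 and 0.46.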

Other observations

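Gnaq varied from 1640 to 11660 CPM among the 9 Gαq libraries, and each of the 37 genes was compared with it. This was looked at after seeing the data, and the genes given had the largest Pearson r in size. Over these 9 libraries, on log2(CPM + 0.5), Adamts20 had a Pearson r of 0.821 with Gnaq (exact permutation p = 0.0093, adjusted p = 0.11 over 37 genes) and a Spearman rho of 0.867 (exact p = 0.0045, adjusted p = 0.083). Without the 2 libraries farthest from the median of Gnaq the r was 0.878, and with both genes centred within each diet it was 0.738 (exact p = 0.027 over the 2880 pairings within diets, adjusted p = 0.25). Mmp28 had an r of −0.861 (exact p = 0.0043, adjusted p = 0.086) a rho of −0.833 (exact p = 0.0083, adjusted p = 0.1), an r of −0.796 without the 2 libraries and one of −0.805 centred within diet (exact p = 0.011, adjusted p = 0.21). Timp4 had an r of −0.847 (exact p = 0.0047, adjusted p = 0.086) a rho of −0.883 (exact p = 0.0031, adjusted p = 0.083), an r of −0.851 without the 2 libraries and one of −0.780 centred within diet (exact p = 0.008, adjusted p = 0.21). Gnaq and Adamts20 both had lower means in Gαq ERTU than in Gαq CD, and centring within diet removes that difference of means. Of the 37 relations 9 had an exact p under 0.05 over all 9 libraries and 4 within diets, and none passed after adjustment.

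Timp4 was one of the most variable of these genes within groups, from 6.67 to 108 CPM over 18 libraries. Values of log2(CPM + 0.5), centred within each group, were compared with those of the other 36 genes and, after seeing the data, of the glucocorticoid-induced gene Fkbp5. Fkbp5 had a Pearson r of 0.897 with Timp4 (permutation p = 1e-05, the smallest that 100000 resamples can give, adjusted p = 0.00018 over 37 relations), a Spearman rho of 0.922 (permutation p = 1e-05, adjusted p = 0.00037) and an r of 0.897 without the 2 farthest libraries. Mmp28 had an r of 0.845 (permutation p = 1e-05, adjusted p = 0.00018), a rho of 0.845 (permutation p = 2e-05, adjusted p = 0.00037) and 0.846 without 2 libraries. Adamts17 ran the other way, with an r of −0.788 (permutation p = 0.0016, adjusted p = 0.015), a rho of −0.808 (permutation p = 0.0013, adjusted p = 0.012) and −0.771 without 2 libraries. In all 7 of the 37 relations had an adjusted p under 0.05 by Pearson's r, and 4 of them also by Spearman's rho. Both counts include Fkbp5, which is not one of the 37 genes. The adjustment over 37 relations does not cover its choice after seeing the data. These are relations between libraries of the same groups, and no group differed in Timp4 by edgeR's test.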
